A study of Mus musculus with 4 samples.

Results

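Cytokine receptors decide which interleukins an activated CD8+ T cell can answer. The expression of 10 receptor chains (Il2ra, Il2rb, Il2rg, Il7r, Il4ra, Il12rb1, Il12rb2, Il18r1, Il21r and Il23r) was compared between activated mouse CD8+ T cells cultured with spermidine and the same kind of culture without it. The members were chosen by gene symbol, taking the brightest array feature of each symbol. A feature was found for 9 of the 10, among 19505 gene symbols on the array, and each of the 9 symbols had 1 feature. Il2rg, which encodes the common gamma chain, was not analysed here because the annotation used paired no feature with it.

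The spermidine group was 2 arrays of CD8+ T cells treated with 25 µM spermidine, a polyamine, and the control group was 2 arrays of untreated CD8+ T cells. All cells came from spleens and lymph nodes of mice labelled C57/BL6. In both groups beads with antibodies to CD3 and CD28 gave the activating signal, and the medium held interleukin 2 (IL-2) for 3 days, so the level of IL-2 receptor chains was measured under IL-2 in every sample. The arrays are Clariom S Mouse, with 22206 gene features and values taken as log2 signals. The log2 base was inferred and the highest value, 19.93, is high for this kind of value, so each fold rests on that reading of the scale. The labels give each group's arrays as biological replicates and name no animal or culture behind them, so p-values cover only the spread between these samples. In bulk RNA, fewer cells that express a gene and less RNA per cell cannot be told apart.

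The 4 array medians spanned 5.13 to 5.25, and pairs of arrays correlated at 0.989 to 0.994 over all gene features. The T cell label was checked on its markers: Cd8a had 16.59 and 16.57 in the spermidine arrays, against 16.66 and 16.68 in the control arrays, and 8 of 8 measured T cell markers were above background on every array. Background here means the 95th percentile of 23 features whose probes match no genomic sequence, 6.35 on average. Of 9 macrophage and dendritic cell markers, 9 had means below it in both groups. The 4 hybridisation spike-ins averaged 0.451 higher (log2) in the spermidine arrays than in the control arrays, and their part in the results below was not tested.

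The IL-2 receptor is built from an alpha, a beta and the common gamma chain. The beta and gamma chains also carry IL-15 signals, and the gamma chain pairs with the specific chains for IL-4, IL-7 and IL-21. These receptors signal through JAK kinases and STAT transcription factors. The receptors for IL-12 and IL-23 share the chain encoded by Il12rb1, which joins Il12rb2 for IL-12 and Il23r for IL-23. The IL-18 receptor is of another family and signals through the adaptor MyD88. In CD8+ T cells, antigen and IL-2 raise the alpha chain, Il7r marks naive and memory precursor cells, and IL-12 with IL-18 drives interferon gamma.

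The groups differed by under 1.5-fold in 8 of the 9 receptors, and 8.11% of all features reached 1.5-fold. The control signals of Il23r, the remaining receptor, lay below background. For several of the 8 the 95% confidence interval reached past 1.5-fold, up to 1.87-fold for Il12rb1. No receptor passed the test: 0 of 9 had an adjusted p under 0.05 (limma, Benjamini-Hochberg over all features), beside 0% of all features. The largest difference of signals was that of Il23r, 1.38 ± 0.39 (log2, SE), which is no measure of the fold, and the others ran from -0.25 for Il18r1 to 0.40 for Il12rb1. At an unadjusted p under 0.05 together with a fold of at least 1.5, 1 of 9 receptors differed, beside 6.06% of all features. At the unadjusted p alone it was also 1 of 9, beside 1558 features or 7.02%. The median difference of the receptors was 0.15, against -0.01 over all features, and 7 of 9 were above 0, beside 49.1% of features. The receptor median stood at 0.04 without spermidine replicate 2 and at 0.30 without spermidine replicate 1. In 5 receptors the arrays of the groups did not overlap, 3 higher and 2 lower with spermidine, beside 36.7% of all features (18.3% higher and 18.4% lower). For 8 receptors the 95% confidence interval of the difference lay within a 2-fold change in either direction. That interval reached past it for Il23r.

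**Figure D1:**
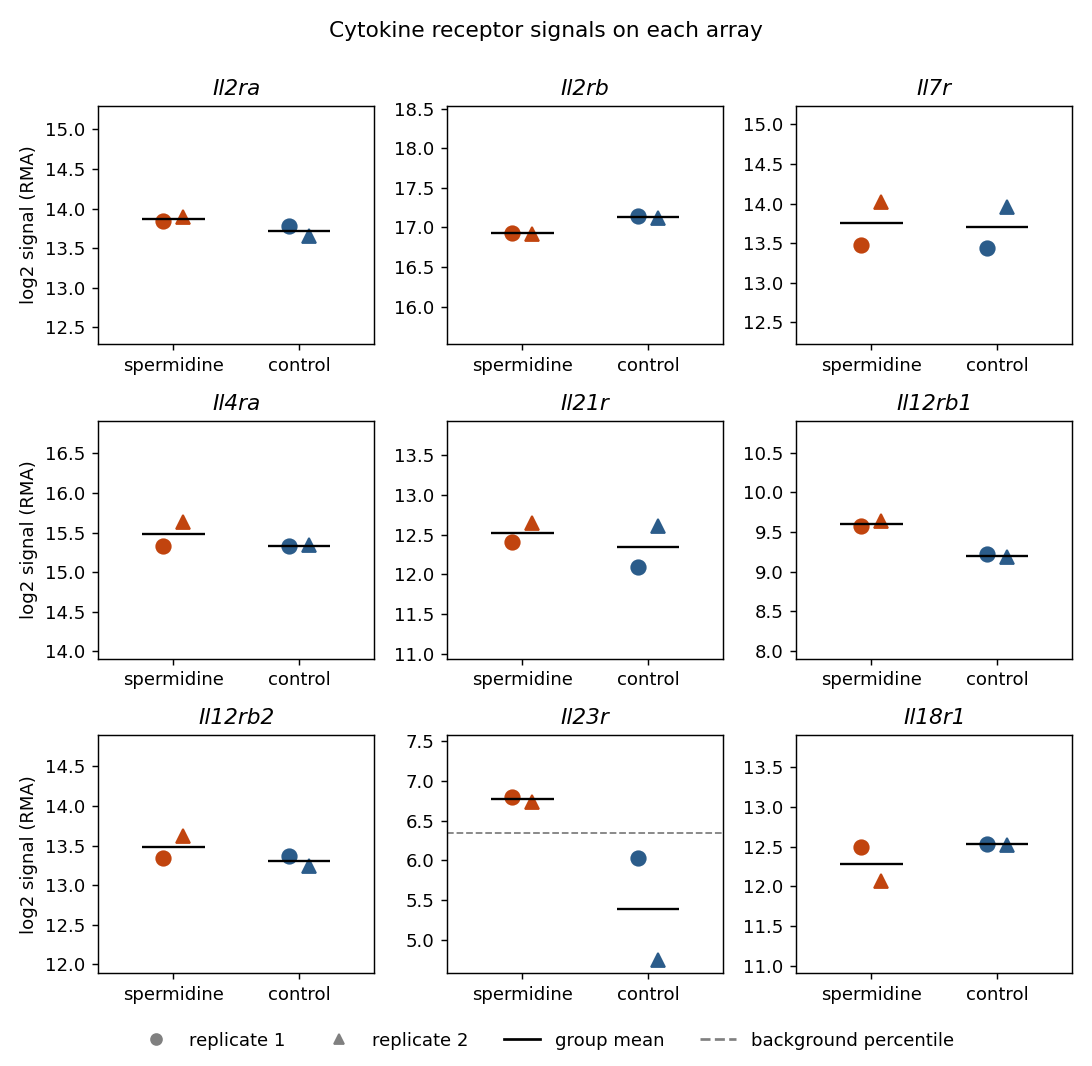
Log2 signal (RMA) of each measured receptor on the 4 arrays, with spermidine left of control in each panel; circles are replicate 1, triangles replicate 2 and bars group means, and every panel spans 3 log2 units. Il23r is the 1 receptor whose control arrays lie below the background percentile (dashed line, 6.35), and Il7r shows gaps of 0.54 (spermidine) and 0.52 (control) between replicate numbers.

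**Figure D2:**
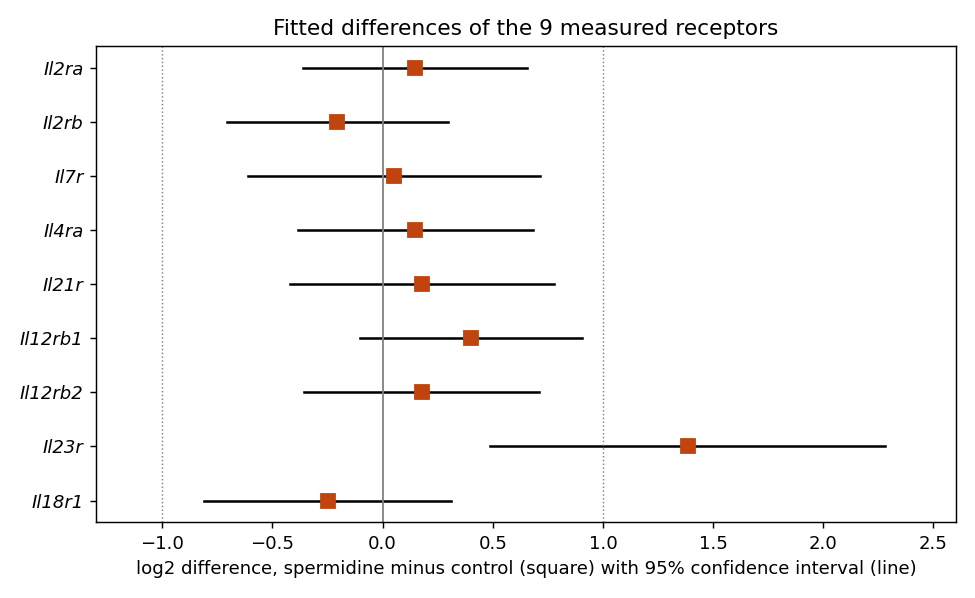
Fitted log2 difference, spermidine minus control, of the 9 receptors (squares) with its 95% confidence interval (lines), the dotted lines marking a 2-fold change. The intervals of 8 receptors hold 0 and stay inside the dotted lines, and that of Il23r runs from 0.49 to 2.28.

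Among the IL-2 receptor chains, Il2ra, the high-affinity alpha chain (CD25), had 13.84 and 13.89 in the spermidine arrays, against 13.78 and 13.66 in the control arrays. Both spermidine values lay above both control values, by little. The log2 difference was 0.15 ± 0.22 (SE, adjusted p = 0.924 by limma), a 1.11-fold level with an interval from 0.78 to 1.58, and its log2 difference stood at 0.09 without control replicate 2. Il2rb, the signalling beta chain shared with IL-15, had 16.93 and 16.92 with spermidine, against 17.14 and 17.12 in control. Its replicates were 0.02 apart in either group, and the spermidine arrays were lower, by 0.21 on the log2 scale. This is 8.80 times as much as the wider of the 2 replicate gaps, yet the test across all features, which draws each feature's spread toward that of the others, gave an adjusted p of 0.886 (limma) and an interval from -0.71 to 0.30. Il2rb was bright: 188 features exceeded 16 on every array and the highest value of all was 19.93. After a further quantile normalization over gene features its difference was -0.10. Il15ra, the alpha chain of the IL-15 receptor, had 7.57 and 7.36 with spermidine, against 7.73 and 7.34 in control, which overlapped.

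The other partners of the common gamma chain did not separate the groups. Il7r, the alpha chain of the IL-7 receptor (CD127), had 13.48 and 14.02 in the spermidine arrays, against 13.44 and 13.96 in the control arrays. The gaps between the arrays of a group, 0.54 with spermidine and 0.52 in control, were far larger than the difference between the group means, 0.05 ± 0.29 (SE, adjusted p = 0.987, limma). It reached 0.11 after cyclic loess and turned negative without control replicate 1 (-0.21) or spermidine replicate 2 (-0.22). In both groups the array numbered 2 was the higher one; whether the numbers mark shared cultures is not stated in the labels. Il4ra, the IL-4 receptor alpha chain, also used by IL-13, had 15.33 and 15.64 with spermidine, against 15.33 and 15.34 in control. Spermidine replicate 2 alone stood apart, and without it the difference of 0.15 became -0.01; after a further quantile normalization it was 0.26. Il21r, the specific chain for IL-21, had 12.41 and 12.65 with spermidine, against 12.09 and 12.61 in control. Its groups overlapped, the difference was 0.18 with an interval from -0.42 to 0.78, and without control replicate 1 it became -0.08.

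The 2 largest differences were those of Il23r and Il12rb1, which together form the IL-23 receptor. Il12rb1, the chain that both receptors share, had 9.57 and 9.64 in the spermidine arrays, against 9.22 and 9.18 in the control arrays. Each group was tight and the spermidine arrays were higher in 2 of 2, by 0.40 ± 0.22 (log2, SE), a 1.32-fold level (adjusted p = 0.755, limma; interval 0.93 to 1.87). With any 1 array left out the difference lay between 0.37 and 0.44. Il12rb2, the signalling chain of the IL-12 receptor, had 13.34 and 13.62 with spermidine, against 13.37 and 13.24 in control. One spermidine array fell between the control arrays, and the difference was 0.18 ± 0.23 (SE), or 0.04 without spermidine replicate 2.

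Il23r, the specific chain of the IL-23 receptor, had 6.80 and 6.74 in the spermidine arrays, against 6.03 and 4.75 in the control arrays. Both spermidine arrays lay above their own background percentiles (6.39 and 6.38) and both control arrays below theirs (6.29 and 6.34). The difference of 1.38 is therefore of signals that reach into background and is no measure of the fold. The mean spermidine signal was 1.37-fold the mean of the control arrays' background percentiles. This value has no error estimate and was not tested, so it describes these arrays and sets no firm minimum. It is below the fold threshold under which Il23r was counted above, a count that used the difference of signals. For that difference the unadjusted p was 0.00737 and the adjusted p 0.637 (limma). Control arrays were 1.28 apart, nearly as far as the groups, and control replicate 2 carried much of the difference, which stood at 0.74 without that array and at 2.02 without control replicate 1. Likeness to the Il23r pattern over the 4 arrays was measured by Euclidean distance after centring each feature on its mean. Candidates had 1 gene symbol and a larger group mean of at least 5.17, the median feature level. The closest 3 were Gzmc, a granzyme (distance 0.26), Gcnt1, a glycosyltransferase (0.43), and Skint3 (0.53). Skint3 was below background on every array, Gcnt1 on both control arrays and Gzmc on control replicate 2. Over 4 arrays such likeness is a description only.

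Il12rb2 and Il23r are neighbours on chromosome 6, with 0 protein-coding genes between them, and Il4ra and Il21r likewise on chromosome 7, by the order of genes in RefSeq (GRCm38.p6). The promoters of Il23r and Il12rb2 are shown because these neighbours use the same partner chain, and Il23r had the largest difference of signals. Each run covers the 250 bases before the gene's start and 50 after it, from RefSeq, on the minus strand, at chr6:67491806-67492105 for Il23r and chr6:67376139-67376438 for Il12rb2. Capitals mark AGGTCA, the half-site of ROR nuclear receptors, in Il23r, and TTCNNNGAA, the core bound by STAT factors, in Il12rb2, on either strand.
Il23r: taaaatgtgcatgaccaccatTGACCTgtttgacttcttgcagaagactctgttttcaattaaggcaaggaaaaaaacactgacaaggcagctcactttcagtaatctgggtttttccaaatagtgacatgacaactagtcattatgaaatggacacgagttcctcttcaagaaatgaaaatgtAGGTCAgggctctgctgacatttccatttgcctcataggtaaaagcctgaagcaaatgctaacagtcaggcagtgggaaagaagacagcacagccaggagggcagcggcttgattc
Il12rb2: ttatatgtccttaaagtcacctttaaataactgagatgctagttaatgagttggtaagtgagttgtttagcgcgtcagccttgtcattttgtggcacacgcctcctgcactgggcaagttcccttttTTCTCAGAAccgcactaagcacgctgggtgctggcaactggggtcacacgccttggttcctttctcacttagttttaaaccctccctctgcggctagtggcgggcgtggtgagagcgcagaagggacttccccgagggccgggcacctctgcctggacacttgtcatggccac
AGGTCA was found in 2 places in the Il23r window, at 229 and 66 bases before the start, and in 16.3% of the 32851 promoters of the table. TTCNNNGAA was found once in the Il12rb2 window, at 123 bases before the start, and in 8.3% of all promoters. Of the 8 receptor genes with an entry (Il2rg among them; Il2rb and Il12rb1 had none), Il7r, Il12rb2 and 1 of 3 Il18r1 starts held TTCNNNGAA, and AGGTCA was in Il21r and Il23r. The AP-1 core, TGANTCA, was in 0 of them, beside 7.81% of all promoters, and GGAAG, an ETS core, was in 6, beside 71.4%. No marked match overlapped another in the printed windows, and a match of letters is a description and not a binding site.

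Il18r1, the binding chain of the IL-18 receptor, belongs to the other receptor family. It had 12.50 and 12.07 in the spermidine arrays, against 12.54 and 12.53 in the control arrays. Spermidine replicate 2 was low while replicate 1 was near the control arrays. The difference was -0.25 ± 0.24 (SE, adjusted p = 0.869, limma), and it stood at -0.04 without spermidine replicate 2 and at -0.46 without spermidine replicate 1. Its partner chain Il18rap had 10.68 and 10.45 with spermidine, against 10.43 and 9.98 in control, a difference of 0.36 (adjusted p = 0.813, limma) that stood at 0.13 without control replicate 2 and at 0.59 without control replicate 1.

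**Figure D3:**
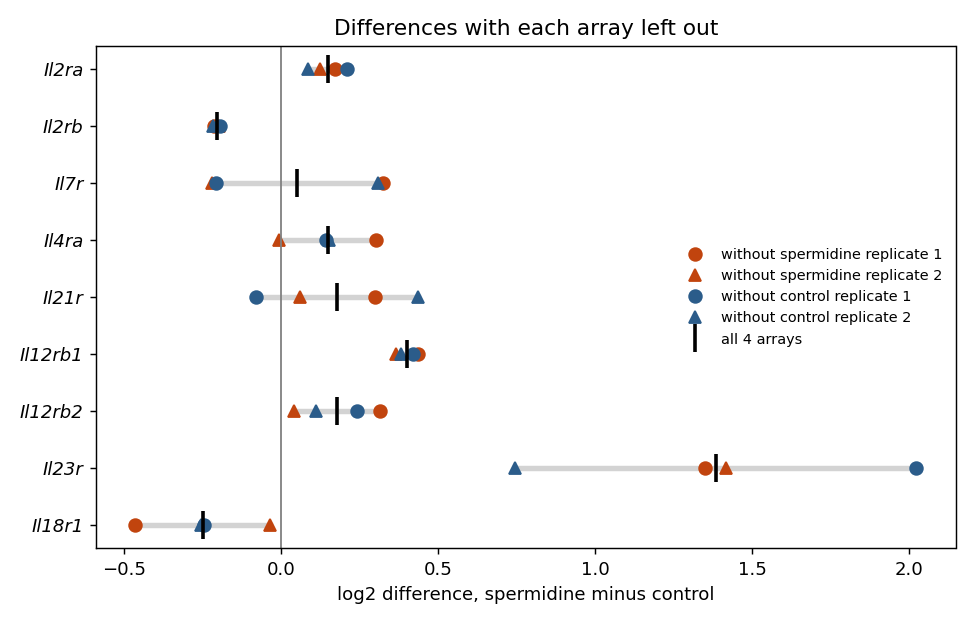
Log2 difference, spermidine minus control, of each receptor with all 4 arrays (black ticks) and with 1 array left out (circles for replicate 1, triangles for replicate 2, in the colour of the group left out; grey bars give the range). Il12rb1 and Il2rb hardly moved, Il23r ran from 0.74 to 2.02, and Il7r, Il4ra and Il21r crossed 0.

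Related genes were taken from lists written for this comparison, and 0 of their members passed the adjusted threshold in either direction (limma), beside 0% of all features. The list counts below stand beside 7.02% of all features with an unadjusted p under 0.05 (limma) and 49.1% with a difference above 0. In lists this short a count of 0 is near that first share and is no result about their genes. Of the 22 measured partner and other cytokine receptors, 16 were higher and 6 lower, with a median of 0.06. The one with an unadjusted p under 0.05 was Il5ra, the IL-5 receptor alpha chain, with 5.195 and 5.24 in the spermidine arrays and 4.25 and 4.68 in the control arrays, all below background. The 9 measured JAK and STAT genes, the kinases and transcription factors that carry these signals, had a median of 0.08 and 0 members with an unadjusted p under 0.05. The largest statistics were those of Tyk2, a kinase of the IL-12 and IL-23 receptors, at 0.54 ± 0.26 (log2, SE) and Stat5b, which acts after IL-2, at 0.41 ± 0.24. Without control replicate 1 they stood at 0.27 and 0.21. Stat4, the main factor after IL-12, differed by -0.05, with values from -0.28 to 0.18 when 1 array was left out.

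Of the 3 measured adaptors of IL-18 signalling, the kinase gene Irak2 had 8.67 and 8.89 in the spermidine arrays, against 8.04 and 8.28 in the control arrays. Its difference was 0.63 ± 0.23 (log2, SE; unadjusted p = 0.0271, adjusted p = 0.668, limma), and Myd88 differed by -0.12. The 13 feedback inhibitors had a median of -0.06 and 0 members with an unadjusted p under 0.05. Among them the phosphatase gene Ptpn2 stood at -0.43 ± 0.27 and the STAT inhibitor Pias1 at -0.42 ± 0.22 (log2, SE). Ptpn2 stood at -0.19 without spermidine replicate 2 and Pias1 between -0.46 and -0.38 with any 1 array left out.

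Genes that respond to these receptors did not follow 1 direction. Of 12 STAT5 target genes, 6 were higher and 6 lower, with a median of 0.03. These 12 include the receptor gene Il2ra, and Cish and Socs2, which were also counted as feedback inhibitors. Ccnd3, a G1 cyclin, had 15.76 and 15.49 in the spermidine arrays, against 16.33 and 16.23 in the control arrays (-0.66 ± 0.23, SE; unadjusted p = 0.021, adjusted p = 0.647, limma), while Cish, a feedback gene induced by IL-2, differed by -0.19 and the survival gene Bcl2 by 0.16 (0.04 without control replicate 1). Of 9 genes of the IL-12 and STAT4 response, 4 were higher and 5 lower, with a median of -0.14. These 9 include the receptor genes Il18r1 and Il18rap, already described above. Ifng, the cytokine that IL-12 and IL-18 induce, differed by -0.14, by -0.29 without control replicate 2 and by less than 0.01 in the other direction without control replicate 1. The perforin gene Prf1 stood at -0.49 ± 0.32 and the homeobox gene Hlx at -0.45 ± 0.22 (log2, SE), the second from signals below background. The Prf1 groups overlapped, and its difference ran from -0.83 without spermidine replicate 1 to -0.14 without spermidine replicate 2.

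Il23r belongs, in T helper 17 cells, to a programme in which the nuclear receptor RORα takes part. Of the 9 measured genes of that list, 7 were higher, beside 49.1% of all features, with a median of 0.13. In both groups 7 had means below background. Rora, which encodes RORα, had 8.76 and 9.51 in the spermidine arrays, against 7.44 and 8.51 in the control arrays. Its groups did not overlap, its difference was 1.16 ± 0.39 (log2, SE; unadjusted p = 0.0186, adjusted p = 0.637, limma), and it ran from 0.62 without control replicate 1 to 1.69 without control replicate 2. Il22 had 3.62 and 4.34 with spermidine, against 2.93 and 2.97 in control, all below background. It differed by 1.03, or 0.67 without spermidine replicate 2. The signature cytokine gene Il17a differed by -0.06, turned sign with 1 array left out (-0.41 to 0.29) and was below background on every array.

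Of the 11 measured genes of the Foxo1 and quiescence list, which holds regulators of Il7r, 5 were higher and 6 lower, with a median of -0.07. The factor gene Foxo3 had 9.69 and 9.69 in the spermidine arrays, against 8.80 and 9.14 in the control arrays (0.72 ± 0.23, log2, SE). Klf2, a factor of quiescent T cells, had 9.73 and 9.88 with spermidine, against 10.32 and 10.60 in control (-0.65 ± 0.23). Foxo1 itself differed by less than 0.01 (-0.28 to 0.28 with 1 array left out), and neither Foxo3 nor Klf2 passed the test (adjusted p = 0.637 and 0.661, limma). The 11 measured ligands of the receptors, Il2 among them, had means below background in both groups. The largest statistics there were those of Il12a, a subunit of IL-12, at 0.50 ± 0.26, and Il15 at -0.38 ± 0.26 (log2, SE). Il12a stood at 0.22 without spermidine replicate 2 and Il15 at -0.08 without spermidine replicate 1.

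**Figure D4:**
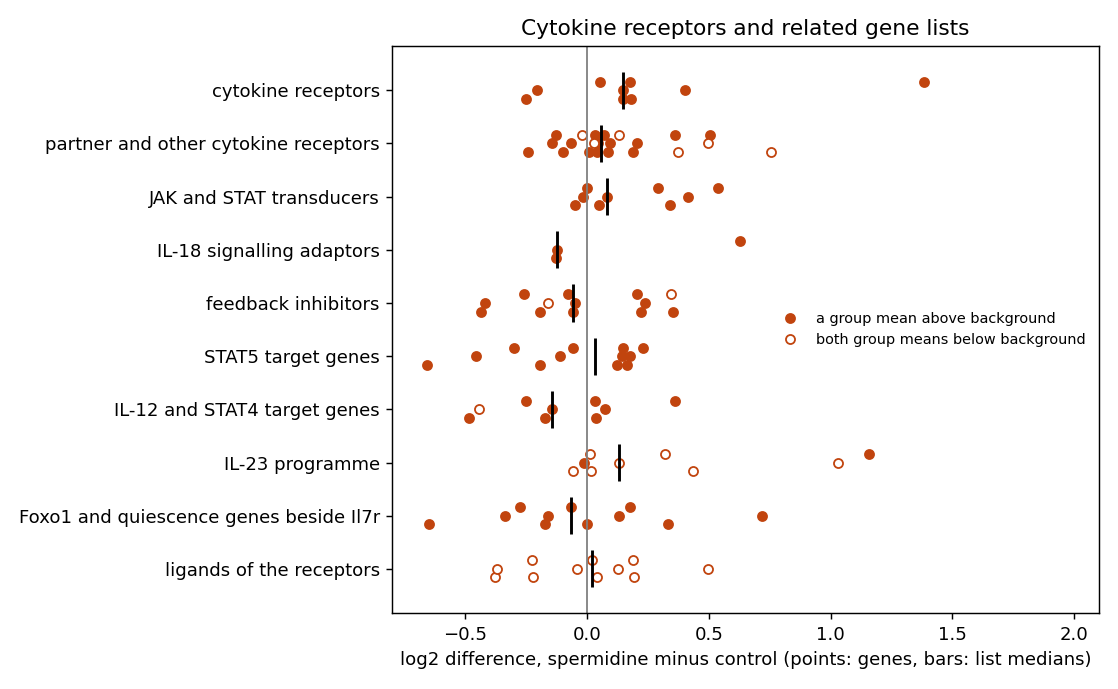
Log2 difference, spermidine minus control, of each measured gene (points) in the receptor group and in 9 related lists, with list medians as bars; open points have both group means below the background percentile of 6.35. List medians lie between -0.14 and 0.15, and Il23r at 1.38 and Rora at 1.16 are the points farthest to the right among the filled ones.

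Genes listed as markers of other cell types were set beside Il23r, the dimmest receptor. Bulk RNA does not show which cells carried their signals, and the CD8+ T cells themselves may be among them. Of 9 measured B cell markers, 8 were higher with spermidine, beside 49.1% of all features, and 5 had means below background in both groups. Their average log2 signal was 6.16 and 5.84 in the spermidine arrays, against 5.66 and 5.62 in the control arrays, led by Cd79a (7.40 and 7.15 with spermidine, against 6.44 and 6.50 in control) and Cd22 (5.01 and 4.26 with spermidine, against 3.53 and 3.87 in control). Cd22 was below background on every array and differed by 0.94, or 0.56 without spermidine replicate 1. Genes listed for gamma-delta T cells, mucosal T cells and innate lymphoid cells, which can carry Il23r, averaged 5.67 and 6.01 with spermidine, against 5.72 and 5.79 in control. Mr1 was the brightest of these genes, at 8.38 and 9.35 with spermidine, against 8.51 and 8.69 in control. Blk was also listed among the B cell markers. Of the 7 genes measured in that list, 4 had means below background in both groups, namely Sox13, Blk, Ccr6 and Il17a. Macrophage and dendritic cell markers averaged 3.48 and 3.59 with spermidine, against 3.49 and 3.51 in control, with Lyz2 at 0.86 ± 0.24 (log2, SE) below background. Of these 9 markers, 5 were higher and 4 lower with spermidine, Fcgr1 among the lower at -0.50. The 5 measured NK cell markers averaged 7.25 and 6.81 with spermidine, against 7.55 and 7.04 in control, with Klre1 at -0.85 ± 0.23 below background. Of these NK cell markers, 2 were higher and 3 lower with spermidine. Eomes was the brightest of them, at 13.22 and 11.82 with spermidine, against 13.57 and 12.46 in control. Ncr1, higher by 0.44 with spermidine, was like Klre1 below background on every array. The CD4 and regulatory T cell markers, 5 measured, averaged 8.65 and 9.01 with spermidine, against 8.51 and 8.80 in control, with Zbtb7b at 0.76 ± 0.26 (0.48 without control replicate 1) and Cd4 at -0.06 (-0.39 to 0.27 with 1 array left out). The brightest there were Ctla4 (13.28 and 14.26 with spermidine, 13.55 and 14.09 in control) and Ikzf2 (12.34 and 12.71 with spermidine, 11.92 and 12.44 in control). Cd40lg was below background on every array, and Foxp3 was not measured. Of the 8 measured T cell markers, 2 were higher and 6 lower with spermidine, with a median of -0.13. In 4 of them the arrays of the groups did not overlap, all lower with spermidine, beside 18.4% of all features. Cd8b1 differed by -0.34 ± 0.23 and Cd3e by -0.33 ± 0.29 (log2, SE). The Cd3e value was -0.66 without spermidine replicate 2 and near 0 without spermidine replicate 1, and that of Cd8b1 was -0.22 without control replicate 2. A list average follows its brightest members and is no measure of cell numbers. The part of these cell types in the Il23r signal was not tested.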

How the data were processed

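Total RNA (250 ng per sample) from 4 samples was hybridised to 1-colour arrays. The authors deposited log2 signals, 1 per feature and array, from RMA in Affymetrix Expression Console (per the submitters' processing notes); versions and genome build are not given in the sources used here. This method subtracts background, equalises the arrays' quantiles and pools probes, which shrinks differences between low signals. Neither base nor scale is stated; log2 was inferred from the values.

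Of 28846 features, 6640 control features were left out and 22206 tested. The platform annotation named 19572 with 1 gene symbol, 0 with several and 2634 with none, and 19572 were found in RefSeq by Entrez identifier. Arrays have no sequencing depth, and their number limits the precision. Spermidine minus control was fitted with limma 3.58.1 under R 4.3.3 (lmFit, then eBayes; degrees of freedom 5.96 from the prior and 2 from residuals), two-sided and adjusted by Benjamini-Hochberg over all features at 0.05. No exact permutation test was used, since 2 arrays a group allow no p under 0.333. The test was checked on simulated data.

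The members and lists were chosen with earlier results of these data known, and lists were described without a set test. All members were named; from each list, members with an unadjusted p under 0.05, or else the 2 with the largest statistics, were named, and others were named after their values were seen. Listed genes without a measured feature were not analysed here. Same-numbered arrays deviated from their group means with a correlation of 0.210 across features, and 2 pairs are too few to settle a pairing. Alternatives covered the prior variance, array weights, normalization, dim-feature filters, features per gene, the replicate number as a block, a looser threshold and each array left out.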

Additional observations from a re-analysis of the deposited data

How the results depend on the processing

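Over 14 alternatives (13 for Il23r, which a filter on features above background removes), 0 of the 9 receptors was called. The prior, array weights, dim-feature filters, features per gene and replicate block left each log2 difference as it was. A sign could therefore change only under a normalization or with 1 array left out. Of 125 receptor values, these fixed ones among them, 121 kept their direction and side of the threshold. The 4 exceptions changed sign when 1 array was left out: Il7r stood at -0.21 without control replicate 1 and at -0.22 without spermidine replicate 2, within a range of -0.22 to 0.32 over the arrays left out. Il4ra stood at -0.0053 without spermidine replicate 2 (range -0.0053 to 0.30) and Il21r at -0.079 without control replicate 1 (range -0.079 to 0.44). In these fits the lone array of a group is assumed to vary like the other group. The count of receptors with an unadjusted p under 0.05 and a fold of at least 1.5 was 0 among features above background, since Il23r is not among them, and 1 otherwise. The receptor median ran from 0.04 to 0.30 with 1 array left out, and from 0.13 to 0.23 with all 4. The count of receptors whose groups did not overlap was 4 to 5 with all 4 arrays and ran from 6 to 9 with 1 left out, where a lone array makes overlap less likely. The adjusted p of Il23r ran from 0.241 to 1 over its alternatives. With the replicate block it was 0.241 (limma), with an unadjusted p of 0.00229, and the block changed no receptor's call. Over all features 0 were called in the design as written, and 1, Hmox1, was called with a prior following intensity, median centring, cyclic loess, either dim-feature filter, the replicate block or a threshold of 0.10. The cause was not tested. Signals near background limit what can be said of Il23r.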
